A study of Homo sapiens with 4 samples.

Results

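The genes described here store, move and sense iron or set how far membrane lipids are oxidised. They are FTH1, FTL, TFRC, SLC40A1, SLC11A2, HMOX1, IREB2, NCOA4, GPX4 and ACSL4, 10 genes chosen by symbol for these roles out of the 40205 genes with a value in each library, and all 10 were found. RNA came from human lung cancer cells transfected for 24 h with a negative control siRNA (NC 1 and NC 2) or with an siRNA against circZFR, a circular RNA made from exons of ZFR (si-circZFR 1 and si-circZFR 2). The question was which transcripts differ once circZFR is silenced. The labels name the line H1299, whereas the article names A549, and both are established human lung lines. Nothing in the labels says whether the libraries of a group came from separate cultures, so p-values measure only the spread between these samples, which may be technical.

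Iron enters most cells bound to transferrin through the transferrin receptor, is stored inside ferritin shells built of heavy and light chains, and leaves through ferroportin. When iron is scarce, the iron regulatory proteins bind hairpins called iron-responsive elements (IREs) in messenger RNAs, which blocks translation of ferritin and protects the transferrin receptor transcript from decay. Ferroptosis is a form of cell death driven by iron-dependent oxidation of polyunsaturated membrane lipids, which GPX4 counters and ACSL4 favours.

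An IRE is a stem with a bulged C and a loop that starts CAGTG. The sequences are shown because they tie the storage, import and export genes to one sensor and because FTH1 and FTL carry nearly the same element. The transcript strand of the annotated untranslated regions (UTRs) was searched for a C, any 5 bases and CAGTGN, with 5 base pairs between the arms next to the loop and a last loop base other than G. The pattern was present in the 5′ UTR of 29 of 17517 genes (0.166%) and in the 3′ UTR of 106 of 17524 genes (0.605%). FTH1, FTL and SLC40A1 held it in the 5′ UTR and TFRC in the 3′ UTR, where 4 copies were found, while the other 6 genes had no match. The pattern is strict, and elements with another loop or with unpaired bases in the arms would be missed. A gene without a match may thus still hold an IRE, and TFRC may hold more. Each sequence reads 5′ to 3′ on the transcript strand with U written as T, and capitals mark the bulged C and the loop.
FTH1 5′ UTR, chr11:61967575-61967601, minus strand: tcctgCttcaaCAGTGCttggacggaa
FTL 5′ UTR, chr19:48965336-48965362, plus strand: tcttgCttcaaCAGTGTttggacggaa
SLC40A1 5′ UTR, chr2:189580662-189580688, minus strand: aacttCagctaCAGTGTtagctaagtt
TFRC 3′ UTR, chr3:196050980-196051006, minus strand: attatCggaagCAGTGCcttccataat
TFRC 3′ UTR, chr3:196050576-196050602, minus strand: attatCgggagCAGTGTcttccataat
TFRC 3′ UTR, chr3:196050511-196050537, minus strand: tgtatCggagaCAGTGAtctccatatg
TFRC 3′ UTR, chr3:196050464-196050490, minus strand: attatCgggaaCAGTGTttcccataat
Coordinates and sequences are from GRCh38 with GENCODE. A match is a description of the letters, and protein binding was not measured in these files.

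The libraries held 11040050 to 12816868 reads each, of which 98.4% to 98.6% lay on listed genes. Values are RPKM (a read count divided by gene length and by library size) multiplied by a scaling factor for each library, called scaled RPKM below, and pairs of values are given in the order of the replicate numbers. The targeted locus was checked first. ZFR fell from 25.9 and 32.3 scaled RPKM in the controls to 5.22 and 4.62 in the silenced libraries, a log2 fold change (log2FC) of -2.34 (standard error 0.18, limma FDR = 0.0459), although these values do not separate the circle from the linear transcript. By contrast, the article reports that its siRNA had no detectable effect on ZFR in A549 and HCC827 cells. Whether the linear transcript fell here, and its part in the results below, was not tested. Of 14 markers of A549-type epithelial cells, 12 had at least 1 RPKM in every library, among them AKR1B10 at 1271 to 1747 RPKM and ALDH1A1 at 738 to 1443 RPKM before scaling. The summed level of these markers was 5813 and 7898 scaled RPKM in NC and 7470 and 7770 in si-circZFR. The groups thus overlapped after scaling. Before scaling they did not, with sums of 5731 to 7036 RPKM in NC and 7657 to 8631 in si-circZFR. Of the 14, 6 were higher and none lower at an unadjusted p under 0.05, against 9.69% and 11.8% of all genes tested. Both silenced libraries were above both controls in 8 and below in 2, against 27.3% and 28.7% of all genes. Their median log2FC was 0.43. The part of these markers in the results below was not tested. The 5 markers of H1299-type mesenchymal cells summed to 683 and 778 scaled RPKM in NC and 698 and 644 in si-circZFR, which also overlapped. Before scaling their sums were 673 to 694 RPKM in NC and 715 to 716 in si-circZFR, without overlap. Of these 5, 4 had at least 1 RPKM in every library. Markers of both types were thus present, and which line was used cannot be told from these lists. Of 9 markers of blood, vessel, stromal and liver cells, 6 were at 0 in all 4 libraries and the highest value was 2.09 RPKM, for COL1A1.

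None of the 10 genes passed FDR < 0.05 and |log2FC| > 1 by limma, a rule that 8 of 13885 genes tested passed (0.0576%), 4 lower (0.0288%) and 4 higher (0.0288%). At an unadjusted p under 0.05, FTH1 and HMOX1 were lower and IREB2 and ACSL4 were higher after circZFR silencing, 4 of 10 genes against 21.5% of all genes tested (11.8% lower and 9.69% higher). In 7 of the 10 genes the libraries of the groups did not overlap, 5 with both si-circZFR libraries below both NC libraries and 2 above, against 56.0% of all genes (28.7% below and 27.3% above). The median log2FC of the 10 genes was -0.093, beside -0.0042 over all genes tested. By limma-voom on the reads behind the RPKM values, HMOX1 (log2FC -0.96, FDR = 0.0336) and ACSL4 (log2FC 0.81, FDR = 0.0496) passed the FDR but not the fold, against 3.12% of genes at that FDR with any fold. In bulk RNA, fewer cells with a transcript and less of it per cell cannot be told apart.

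The levels of the 10 genes differed widely in scaled RPKM, which is per length and can be compared between genes. FTL came first, with a mean over the 4 libraries of 7782 scaled RPKM and rank 8 of all 40205 genes, followed by FTH1 at 851 scaled RPKM and rank 51. GPX4, HMOX1, TFRC and NCOA4 followed with means of 131, 64.3, 55.9 and 41.2 scaled RPKM, of which HMOX1 and TFRC overlapped over the libraries. ACSL4 and IREB2, at means of 18.1 and 16.4, also overlapped, and SLC11A2 and SLC40A1 came last with means of 11.1 and 2.37 scaled RPKM. The other neighbours in this order were apart in all 4 libraries. The level of FTL is uncertain, because its RPKM values imply a length of 1775 bases, whereas its longest annotated GENCODE transcript has 871 bases.

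**Figure D1:**
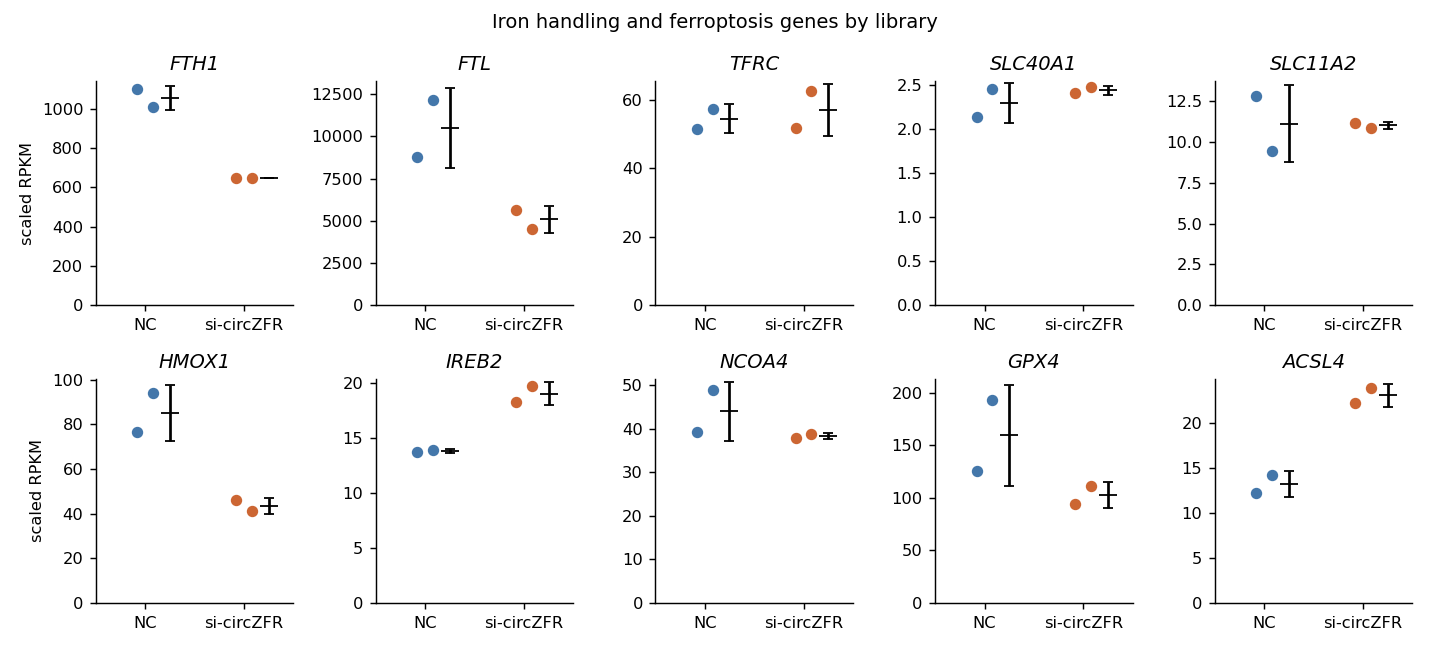
Scaled RPKM of each of the 10 genes in the 4 libraries, 1 panel per gene with its own linear axis from 0, points for libraries and bars for the group mean and SD (n = 2). FTH1, FTL, HMOX1, NCOA4 and GPX4 had both si-circZFR points below both NC points, IREB2 and ACSL4 had both above, and TFRC, SLC40A1 and SLC11A2 overlapped.

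FTH1 (chr11:61959718-61967634, minus strand) encodes the ferritin heavy chain, which oxidises ferrous iron so that it can be stored. FTH1 measured 1099 and 1010 scaled RPKM in NC and 646 and 648 in si-circZFR. Both silenced libraries were lower than both controls, with means of 1055 ± 63.1 and 647 ± 1.54 (SD, n = 2). The log2FC was -0.70 (standard error 0.28, unadjusted p = 0.0456, limma FDR = 0.224), with 7.03% of genes tested lower still, and it was -0.44 after a correction of each library for gene length and GC content.

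FTL (chr19:48965309-48966879, plus strand) encodes the ferritin light chain, which helps the iron core to form. FTL measured 8802 and 12153 scaled RPKM in NC and 5657 and 4514 in si-circZFR. The groups did not overlap, but the control libraries differed from each other by 0.47 and the silenced ones by 0.33 on the log2 scale. The log2FC was -1.03 with a 95% interval of -2.42 to 0.36 (limma FDR = 0.337), since the spread allowed by the trended prior is wide at such high levels. Without the trend, a setting added after the data were seen, the standard error of FTL went from 0.56 to 0.23 and its limma FDR was 0.110. In that setting the standard error of FTH1 went from 0.28 to 0.16 and its limma FDR from 0.224 to 0.114.

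Ferritin has many processed pseudogenes, nearly identical copies to which reads can be assigned instead of the gene. The aligner and the handling of reads that match several places are not given in the sources used here, so the split between FTH1, FTL and their copies is uncertain. The files list 24 pseudogenes of FTH1, 17 of them above 0 in at least 1 library, and 19 of FTL, 8 of them above 0. FTL itself took 1.54% and 1.92% of all reads in NC and 1.03% and 0.890% in si-circZFR. With its copies these shares were 1.82%, 2.48%, 1.32% and 1.22%, so that both silenced libraries again lay below both controls. FTH1 with its copies took 0.190% and 0.168% of reads in NC and 0.124% and 0.124% in si-circZFR. The log2FC with copies summed, also added after the data were seen, was -0.93 for FTL and -0.71 for FTH1.

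**Figure D2:**
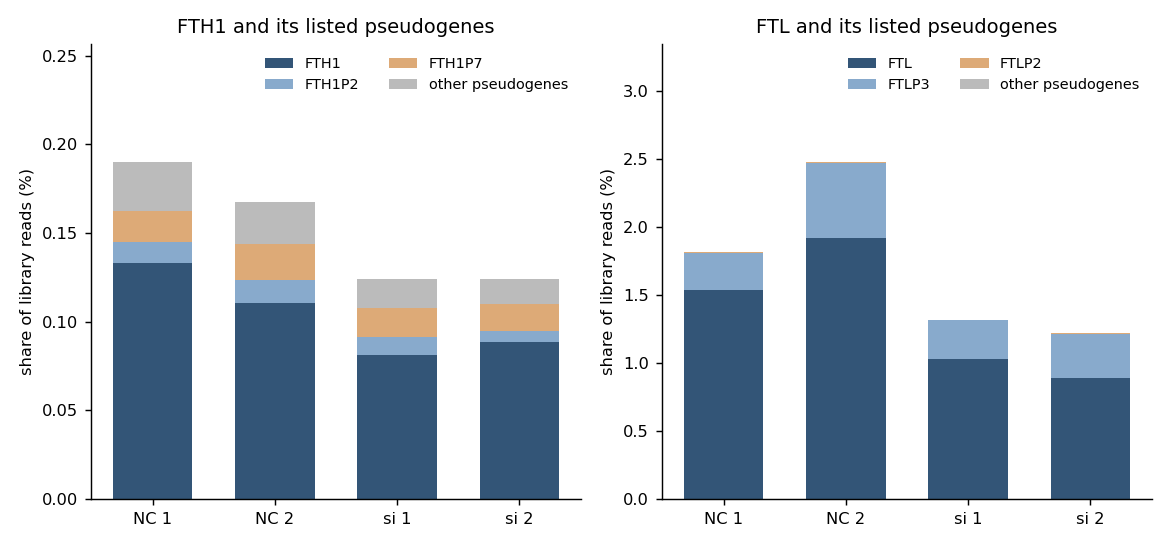
Percent of library reads on FTH1 (left) and FTL (right) and on their pseudogenes in each library, as stacked bars from 0 with linear axes. The full bars, with copies, reached 1.82% and 2.48% for FTL in NC and 1.32% and 1.22% in si-circZFR, and 0.190%, 0.168%, 0.124% and 0.124% for FTH1 in the same order.

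The pseudogene with the highest level was FTLP3, at 3047 and 6931 scaled RPKM in NC and 3127 and 3305 in si-circZFR. Its groups overlapped (log2FC -0.52, standard error 0.56, limma FDR = 0.618). NC 2 had the highest level of FTLP3, and the reads on FTL per read on FTLP3 were 5.77 and 3.50 in the controls and 3.61 and 2.73 in the silenced libraries. FTH1P2 (log2FC -0.80, limma FDR = 0.207) and FTH1P7 (log2FC -0.44, limma FDR = 0.319) were lower in both silenced libraries than in both controls.

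Of 44 listed pseudogenes of the 10 genes, 18 were tested. Of these, 17 had a log2FC below 0, 12 had both silenced libraries below both controls and 1 had both above, and their median log2FC was -0.76. None passed by limma, with 10 lower and 1 higher at an unadjusted p under 0.05. Over all genes tested, 28.7% had both silenced libraries below and 27.3% above, and 11.8% were lower and 9.69% higher at that p. By limma-voom 15 were tested and 4 were called lower, namely FTH1P20 (log2FC -1.37, FDR = 0.0286), FTH1P23 (log2FC -1.28, FDR = 0.0445), FTH1P5 (log2FC -1.25, FDR = 0.0447) and FTLP2 (log2FC -1.35, FDR = 0.0195), against 2.48% of all genes tested that way. The pseudogene with a log2FC above 0 was FTLP12, which rested on 1 and 0 reads in the controls and 4 and 3 in the silenced libraries. These 5 were named after their values were seen. Because copies share reads with FTH1 and FTL, they are not separate evidence of a difference in ferritin.

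Log2 differences varied with gene length both between the groups and between the controls. Across the genes tested, which are not independent replicates, the Spearman correlation of the difference with length was 0.294 between the groups, -0.343 from the first to the second control and 0.019 between the silenced libraries. The median log2FC between the groups was -0.31 for genes of up to 1000 bases, -0.14 from there to 2000 bases, 0.0095 from there to 4000 bases and 0.11 above 4000 bases. The lengths behind the RPKM values were 1229 bases for FTH1, 1590 for HMOX1 and 1006 for GPX4, which were lower, and 6367 for IREB2 and 5335 for ACSL4, which were higher. With the values corrected for length the log2FC was -0.53 for FTH1, -0.84 for HMOX1, -0.37 for GPX4, 0.30 for IREB2 and 0.65 for ACSL4. No direction turned in these 5 genes. HMOX1 and ACSL4 stayed at an unadjusted limma p under 0.05, with 0.00166 and 0.00899. FTH1 and IREB2 did not, with 0.0665 and 0.0956.

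TFRC (chr3:196012511-196082153, minus strand) encodes the transferrin receptor, which takes up transferrin-bound iron. TFRC measured 51.6 and 57.5 scaled RPKM in NC and 51.8 and 62.6 in si-circZFR. The libraries overlapped, and the log2FC was 0.06 with a 95% interval of -0.39 to 0.52 (limma FDR = 0.864), which was -0.047 after the length correction.

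SLC11A2 (chr12:50979401-51028566, minus strand) encodes DMT1, which carries ferrous iron out of endosomes and across the gut lining. SLC11A2 measured 12.8 and 9.44 scaled RPKM in NC and 11.1 and 10.9 in si-circZFR. The silenced libraries lay between the controls, with a log2FC of -0.00039 and a 95% interval of -0.47 to 0.47 (limma FDR = 0.999).

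SLC40A1 (chr2:189560590-189583758, minus strand) encodes ferroportin, the exporter of iron from cells. SLC40A1 measured 2.14 and 2.46 scaled RPKM in NC and 2.41 and 2.48 in si-circZFR, from 88 to 106 reads a library. The groups overlapped, and the log2FC was 0.06 with a 95% interval of -0.37 to 0.49 (limma FDR = 0.856). For these 3 transporters, differences within the intervals given could not be seen with 2 libraries a group. The interval of SLC40A1 reached 0.43 to either side of its log2FC. It reached 0.58 when 0.1 in place of 1 was added before the log2, so larger differences could also be missed.

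Ratios within a library do not depend on the scaling between libraries. The log2 ratio of TFRC to FTH1, which carry their IREs at opposite ends of the transcript, was -4.39 and -4.11 in NC and -3.61 and -3.35 in si-circZFR. The silenced libraries were higher by 0.76, and by 0.49 after the length correction. The exact two-sided permutation p for the 0.76 was 0.333, the smallest that 2 against 2 libraries can give. This difference comes from the same values as the log2FC of TFRC (0.06) and of FTH1 (-0.70) and is not a separate result. The log2 ratio of FTH1 to FTL was -3.29 ± 0.42 in NC and -2.96 ± 0.23 in si-circZFR (SD, n = 2), a difference of 0.33 that was within the spread of the controls (exact permutation p = 0.667) and was 0.62 without NC 1 and 0.036 without NC 2.

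HMOX1 (chr22:35380361-35394214, plus strand) encodes haem oxygenase 1, the inducible enzyme that frees iron from haem. HMOX1 measured 76.4 and 94.0 scaled RPKM in NC and 45.9 and 41.0 in si-circZFR. Both silenced libraries were lower than both controls, with differences of -1.18 to -0.72 on the log2 scale over the 4 pairings. The log2FC was -0.95 with a 95% interval of -1.42 to -0.48 (standard error 0.19, unadjusted p = 0.00266, limma FDR = 0.0944). Without NC 1 HMOX1 passed, with a log2FC of -1.11 and a limma FDR of 0.0369, a setting in which 975 genes were called, whereas its FDR was 0.150 without NC 2, 0.237 without si-circZFR 1 and 0.497 without si-circZFR 2.

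IREB2 (chr15:78437431-78501453, plus strand) encodes iron regulatory protein 2, which binds IREs when iron is low and is degraded when iron is plentiful. IREB2 measured 13.7 and 13.9 scaled RPKM in NC and 18.3 and 19.8 in si-circZFR. Both silenced libraries were higher, with a log2FC of 0.43, a 95% interval of 0.059 to 0.81 and an unadjusted p of 0.0300 (limma FDR = 0.189).

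NCOA4 (chr10:46005088-46030623, minus strand) encodes the receptor that delivers ferritin to the autophagosome, the step that releases stored iron. NCOA4 measured 39.2 and 48.8 scaled RPKM in NC and 37.9 and 38.8 in si-circZFR. NC 2 stood above the other 3 libraries, and the log2FC of -0.19 (95% interval -0.63 to 0.26, limma FDR = 0.575) was -0.032 without NC 2 and -0.35 without NC 1.

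GPX4 (chr19:1103982-1106791, plus strand) encodes the selenoenzyme that reduces lipid hydroperoxides in membranes. GPX4 measured 126 and 193 scaled RPKM in NC and 94.0 and 112 in si-circZFR. Both silenced libraries were below both controls, yet the controls differed from each other by 0.62 on the log2 scale, about as much as the groups did. The log2FC was -0.60 with a 95% interval of -1.26 to 0.054 (limma FDR = 0.261). It was -0.92 without NC 1 and -0.29 without NC 2.

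ACSL4 (chrX:109624244-109733403, minus strand) encodes the acyl-CoA synthetase that prepares arachidonic acid for entry into membrane phospholipids. ACSL4 measured 12.2 and 14.2 scaled RPKM in NC and 22.2 and 24.0 in si-circZFR. Both silenced libraries were higher than both controls, by 0.61 to 0.92 on the log2 scale over the 4 pairings. The log2FC was 0.76 with a 95% interval of 0.36 to 1.16 (standard error 0.16, unadjusted p = 0.00367, limma FDR = 0.0990), with 95.7% of genes tested lower.

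**Figure D3:**
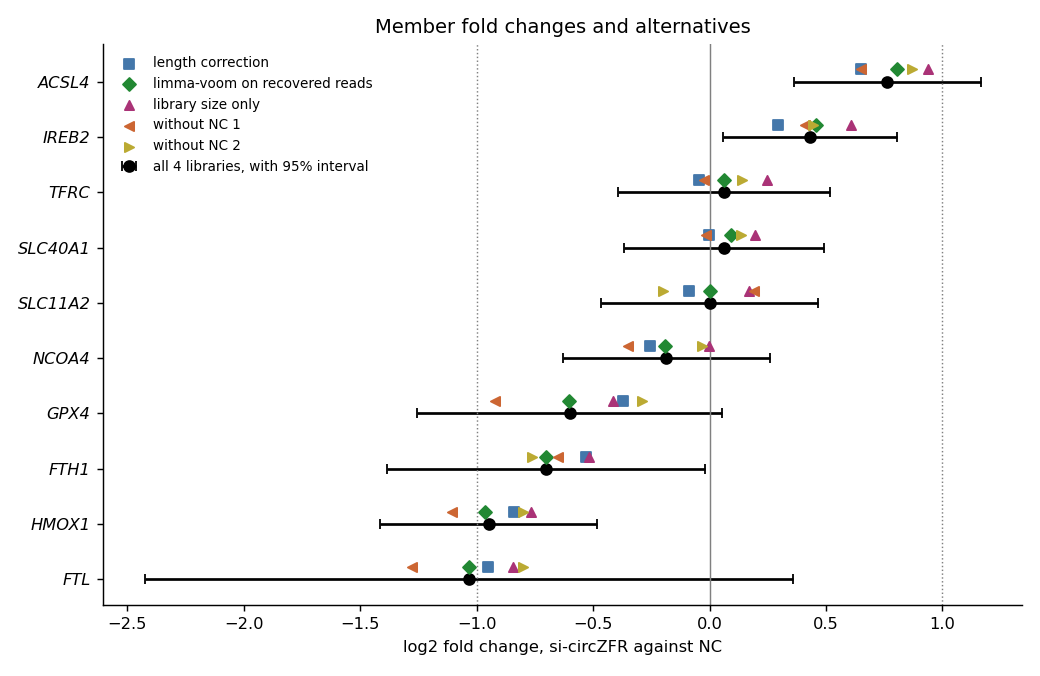
Log2 fold change of si-circZFR against NC for the 10 genes, as black points with 95% intervals from limma and coloured marks for other settings, with dotted lines at -1 and 1. The intervals of FTH1, HMOX1, IREB2 and ACSL4 leave out 0, and that of FTL is the widest, from -2.42 to 0.36.

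Other genes of iron and lipid peroxide metabolism were grouped by role into 7 lists of 132 genes in all, of which 113 were tested. None passed by limma, with 7 higher and 12 lower at an unadjusted p under 0.05, against 9.69% and 11.8% of all genes tested. Their median log2FC was -0.083, beside -0.0042 over all genes, and 26 had both silenced libraries above both controls and 35 below, against 27.3% and 28.7% of all genes. By limma-voom PTGS2 was called higher, against 2.48% of all genes called higher or lower that way.

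In the transferrin cycle and iron import list, 9 of 12 genes were tested, 1 was higher and 1 lower at an unadjusted p under 0.05, and the median log2FC was -0.039. HFE, a partner of the transferrin receptor, went from 6.12 and 6.55 scaled RPKM in NC to 9.01 and 10.5 in si-circZFR (log2FC 0.55, limma FDR = 0.151). MCOLN1, a lysosomal cation channel, had a log2FC of -0.50 (limma FDR = 0.156), and SLC39A8, a zinc and iron importer, of 0.33 (limma FDR = 0.291). Transferrin itself, TF, was under the filter.

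In the export and haem traffic list, 9 of 13 genes were tested, 1 was higher and none lower at an unadjusted p under 0.05, and the median log2FC was 0.11, which was -0.0020 without si-circZFR 2, 0.049 without NC 1 and 0.050 without NC 2. CP, which encodes ceruloplasmin, the oxidase that loads exported iron onto transferrin, measured 11.7 and 13.7 scaled RPKM in NC and 22.3 and 21.5 in si-circZFR. The libraries did not overlap (log2FC 0.74, limma FDR = 0.0994). SLC48A1, a haem transporter, had a log2FC of -0.28 (limma FDR = 0.352), and ABCG2, a haem and drug exporter, of 0.18 (limma FDR = 0.545). HAMP, which encodes the hormone hepcidin, was under the filter.

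In the iron sensing and ferritin turnover list, 11 of 12 genes were tested and none had an unadjusted p under 0.05. The 3 genes with the smallest p were PCBP1, an iron chaperone for ferritin, with a log2FC of -0.54 (limma FDR = 0.316), WDR45, an autophagy factor, with 0.28 (limma FDR = 0.346), and ACO1, which encodes iron regulatory protein 1, with 0.30 (limma FDR = 0.362).

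Mitochondrial iron, haem synthesis and iron-sulphur assembly was the longest list, with 28 of 30 genes tested. At an unadjusted limma p under 0.05, 6 were lower and 1 was higher, against 11.8% and 9.69% of all genes tested. The median log2FC was -0.13, which was -0.068 with the length correction and -0.032 with length and GC. BOLA3, which helps to insert iron-sulphur clusters, measured 23.7 and 22.8 scaled RPKM in NC and 14.1 and 13.2 in si-circZFR (log2FC -0.73, limma FDR = 0.0964). LYRM4, which stabilises the cysteine desulphurase of cluster assembly, had a log2FC of -0.79 (limma FDR = 0.145), and ISCU, the scaffold on which clusters form, of -0.63 (limma FDR = 0.168). The list median was -0.32 without NC 1 and -0.0042 without NC 2. The log2FC of LYRM4 was -1.05 without NC 1, -0.54 without NC 2, -0.64 without si-circZFR 1 and -0.93 without si-circZFR 2.

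In the cystine uptake and glutathione list, 19 of 22 genes were tested, 4 were lower and 1 higher at an unadjusted p under 0.05, and the median log2FC was -0.11, which was -0.022 without NC 2, -0.17 without NC 1 and -0.17 without si-circZFR 2. CHAC1, which degrades glutathione, measured 3.15 and 2.69 scaled RPKM in NC and 1.61 and 0.784 in si-circZFR (log2FC -0.86, limma FDR = 0.142). GPX1, a cytosolic glutathione peroxidase, had a log2FC of -0.64 (limma FDR = 0.168), and CBS, an enzyme of cysteine synthesis, of 0.65 (limma FDR = 0.208).

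In the glutathione-independent defence list all 19 genes were tested, 1 higher and 1 lower at an unadjusted p under 0.05, and the median log2FC was -0.21, which was 0.020 without NC 2. PDSS2, an enzyme of coenzyme Q synthesis, had a log2FC of 0.50 (limma FDR = 0.202), DHODH, which reduces coenzyme Q in mitochondria, of -0.38 (limma FDR = 0.226), and PTS, an enzyme of tetrahydrobiopterin synthesis, of 0.44 (limma FDR = 0.273).

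In the lipid peroxidation list, 18 of 24 genes were tested, 2 were higher and none lower at an unadjusted p under 0.05, and the median log2FC was -0.023. PTGS2, which encodes cyclooxygenase 2, measured 9.08 and 9.10 scaled RPKM in NC and 20.97 and 21.5 in si-circZFR. Both silenced libraries were more than 2-fold above both controls, with a log2FC of 1.14 (standard error 0.15, limma FDR = 0.0696). PTGS2 passed when genes were filtered by CPM instead of RPKM (limma FDR = 0.0461), a setting in which 159 of 14810 genes were called. It also passed by limma-voom (log2FC 1.22, FDR = 0.0184), where 367 of 14810 genes (2.48%) were called. It did not pass in the other settings tried with all 4 libraries, with limma FDR = 0.234 without a filter. Its log2FC was 1.13 without NC 1, 1.14 without NC 2, 1.15 without si-circZFR 1 and 1.12 without si-circZFR 2. SAT1, a polyamine acetyltransferase, had a log2FC of 0.81 (limma FDR = 0.145), and ALOX5, a lipoxygenase, of 0.44 (limma FDR = 0.236).

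**Figure D4:**
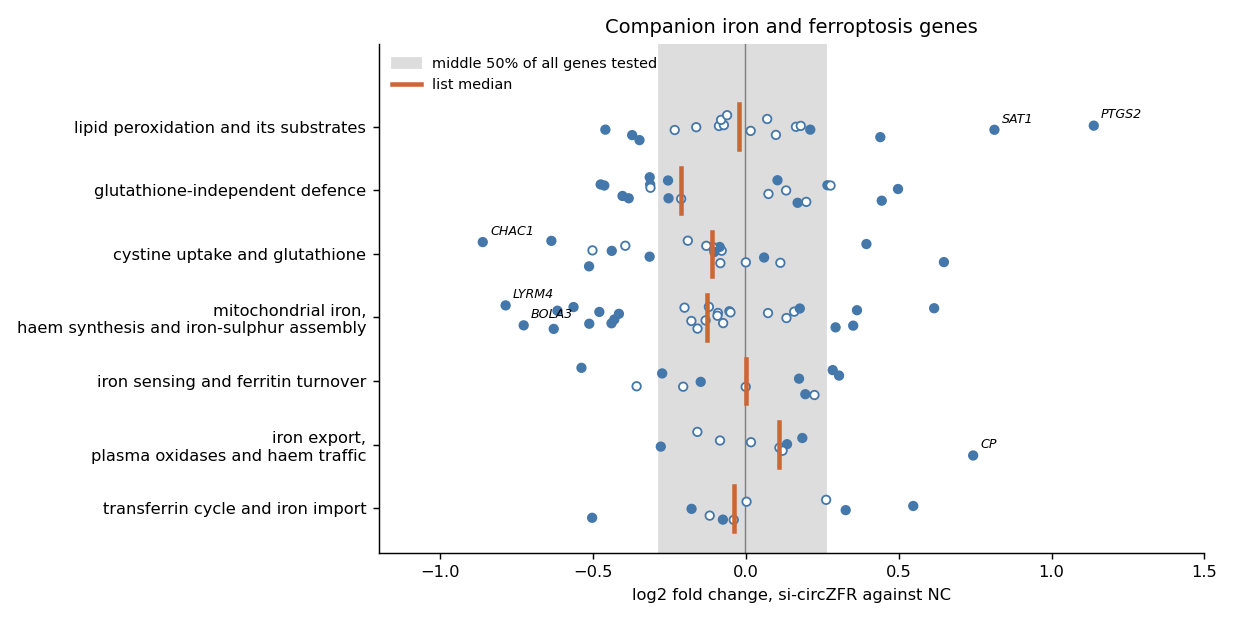
Log2 fold change of si-circZFR against NC for each tested gene of the 7 lists by role, 1 row per list, with filled points where the libraries of the groups did not overlap and open points where they did, the list median marked and the range between the quartiles of all genes tested, -0.28 to 0.26, shaded. The list medians lie between -0.21 and 0.11, and PTGS2 at 1.14 is the highest of the genes in the 7 lists.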

How the data were processed

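Total RNA of 4 libraries was sequenced on the Ion Proton. The authors aligned reads to hg38 (GRCh37 per the submitters' processing notes) and deposited RPKM values per gene. The aligner and annotation are not given in the sources used here. The article states that the authors removed batch effects by SVA and used edgeR, and no such correction was visible in the deposited values, which gave whole reads (below). Groups came from the labels.

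Reads behind the RPKM values were recovered from library totals set on precursor miRNAs of known length (94.9% to 96.6% whole) and the gene length giving whole reads, which did so for 24280 of 24289 genes above 0 (99.96%). Values were multiplied by factors from trimmed means of log ratios (30% of ratios, 5% of levels), 0.900 to 1.12. The 13885 genes that reached an RPKM of 1 in 2 or more libraries were tested by limma on log2(scaled RPKM + 1) with a trended prior and Benjamini-Hochberg adjustment (FDR), and called at FDR under 0.05 and |log2FC| over 1. Fold changes on this scale understate those of low genes. Fewer than 10 reads in all lay on 179 tested genes. The members had 88 to 246326 reads in a library, and intervals on read shares would cover counting error only. The steps were run on simulated data with planted changes larger than those of the members. That run does not show whether changes of the members' size could be found. Alternatives covered scaling, filter, pseudocount, gene length, a block, limma-voom and leaving out each library. The members and lists were chosen with earlier results of these data known. Named besides the 10 genes were ZFR, called genes and the 3 smallest p of each list, the 3 highest pseudogenes and some cell line markers, besides those said in the text to be named after their values were seen. COQ8A is listed as ADCK3. The value of 1 marker gene is not reported here. R 4.3.3, limma 3.58.1, mgcv 1.9.3, matplotlib 3.10.9, scipy 1.17.1, pandas 2.3.3, numpy 2.4.6 and Python 3.11.15 were used.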

Additional observations from a re-analysis of the deposited data

How the results depend on the processing

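The direction of FTH1, FTL, HMOX1, IREB2, NCOA4, GPX4 and ACSL4 held under every alternative run. For NCOA4 this holds in sign only, since its log2FC was -0.0033 with library size only (limma FDR = 0.992). SLC40A1, on 88 to 106 reads a library, had the least depth of the 10 genes. The number of genes called, 8, was 0 without a filter (3652 at an unadjusted p under 0.05), 0 without the trend (2977), 2 with a pseudocount of 0.1, 16 with the length correction, 18 with length and GC, 159 with a CPM filter, 367 by limma-voom, and 0 to 975 on leaving out each library, with 0 without NC 2 (2566 at an unadjusted p under 0.05) and 975 without NC 1. The labels number the libraries 1 and 2 in both groups. Deviations of same-numbered libraries correlated at 0.070 over genes. This value cannot show whether same-numbered libraries share a culture or batch, and the labels do not say. With the replicate number as a block 17 genes were called, or 29 with the length correction too.

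TFRC went to -0.047 with the length correction (with and without the block), -0.023 with length and GC, and -0.071 to 0.20 on leaving out each library. SLC40A1 went to -0.00080 with the length correction (with and without the block) and -0.015 to 0.13 on leaving out each library. SLC11A2 went to 0.17 with library size only, 0.00079 with a pseudocount of 0.1, 9.3e-05 by limma-voom and -0.20 to 0.19 on leaving out each library. HMOX1 ranged from -1.11 to -0.80 on leaving out each library.

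Library size only moved the median log2FC of all genes to 0.15, and the list medians to 0.14 (transferrin), 0.17 (sensing), 0.049 (mitochondrial), 0.076 (cystine), -0.086 (glutathione-independent) and 0.15 (lipid peroxidation). The glutathione-independent median was -0.29 with a pseudocount of 0.1, -0.30 by limma-voom and -0.052 with length and GC. Leaving out each library gave list medians of -0.056 to 0.0060 for transferrin, -0.0020 to 0.11 for export, -0.17 to -0.022 for cystine, -0.060 to 0.047 for lipid peroxidation, -0.021 to 0.092 for sensing, -0.32 to -0.0042 for mitochondrial and -0.20 to 0.020 for glutathione-independent genes. With all 4 libraries kept, called list genes were 1 with the CPM filter and 1 by limma-voom. In these settings 159 and 367 of 14810 genes were called. Calls on leaving out a library rest on 1 library in a group and are not counted for the lists. The cause of these shifts was not tested.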
